A study of Homo sapiens with 24 samples.

Results

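The 7 genes FOS, FOSB, FOSL1, FOSL2, JUN, JUNB and JUND encode the FOS and JUN families of transcription factors, and all 7 were found among the 14585 genes of the deposited count table. The genes were chosen by name, with earlier results of these data known, and by presence in that table, which the authors limited to genes with an average count above 5. RNA was sequenced from 2 human cancer lines, both labelled WT, namely A549, from a lung adenocarcinoma, and Huh7, from a hepatocellular carcinoma. The authors describe A549 as wild-type for p53 and Huh7 as carrying a p53 mutation. Each line had 4 groups of 3 libraries, a control and 1 for each extract, of Pulsatilla chinensis, Bupleurum chinense or Polyporus umbellatus, which gave 24 libraries. The herbs had been extracted with ethanol and the dried extracts dissolved in DMSO. The dose and duration given to the sequenced cells, DMSO in the controls and whether replicates were separate cultures are not given in the sources used here, so p-values measure the spread between these libraries, which may be technical.

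FOS and JUN proteins carry a basic region that contacts DNA and a leucine zipper through which they pair, and the pairs are known as activator protein 1 (AP-1). JUN proteins can pair with each other or with a FOS protein, whereas FOS proteins need a partner, and FOS-JUN pairs bind DNA more tightly than JUN pairs. FOS, FOSB, JUN and JUNB are immediate early genes, whose transcription starts within minutes of a stimulus without new protein synthesis, and their mRNAs are short-lived. FOSL1 (FRA-1) and FOSL2 (FRA-2) lack the strong activation domain of FOS and are made later and for longer, and JUND is made steadily in most cells. JUNB and JUND often counter the growth-promoting action of JUN.

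In GRCh38 (GENCODE 44), FOS (ENSG00000170345) lies at chr14:75278826-75282230, FOSB (ENSG00000125740) at chr19:45467995-45475179, FOSL1 (ENSG00000175592) at chr11:65892049-65900573 and FOSL2 (ENSG00000075426) at chr2:28392448-28417317. JUN (ENSG00000177606) lies at chr1:58776845-58784048, JUNB (ENSG00000171223) at chr19:12791486-12793315 and JUND (ENSG00000130522) at chr19:18279694-18281622. The canonical transcripts of the FOS family genes have 4 exons each, and those of JUN, JUNB and JUND have 1 exon and no intron. FOSL1, JUN and JUND are on the minus strand and the others on the plus strand.

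RefSeq (GRCh38.p14) gave a promoter for 6 of the 7 genes, all but FOSL1. Those of FOS, FOSB, JUN and JUNB are shown because these 4 immediate early genes include the largest changes below, each from a point before its first motif match to a point just before the start of transcription, 5′ to 3′ on the strand of the gene, with the motif matches in capitals. The positions are chr14:75278728-75278817 (plus strand) for FOS, chr19:45467896-45467985 (plus strand) for FOSB, chr1:58784058-58784180 (minus strand) for JUN and chr19:12791339-12791475 (plus strand) for JUNB.
FOS: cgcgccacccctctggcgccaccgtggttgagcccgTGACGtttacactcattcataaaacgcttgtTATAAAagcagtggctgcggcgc
FOSB: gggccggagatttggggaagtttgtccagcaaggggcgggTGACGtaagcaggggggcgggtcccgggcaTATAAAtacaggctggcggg
JUN: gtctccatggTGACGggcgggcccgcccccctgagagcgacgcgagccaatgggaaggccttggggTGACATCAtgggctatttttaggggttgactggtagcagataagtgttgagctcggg
JUNB: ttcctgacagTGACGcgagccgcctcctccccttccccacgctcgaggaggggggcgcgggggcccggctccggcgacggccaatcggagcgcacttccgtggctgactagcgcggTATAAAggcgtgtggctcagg
The capitals mark TGACG, the core of the site of CREB and ATF proteins, TGACATCA, a site bound by JUN-ATF2 pairs, and TATAAA, the TATA box. TATAAA began 33 bases before the start in FOS, 30 in FOSB and 31 in JUNB, so that 3 of 6 promoters held it. TGACG on either strand was found in 6 of 6 promoters, and in 21.2% of the 35116 RefSeq promoters within the same 250 bases before the start. TGACNTCA was found in 2 of 6, in JUN at 67 bases and in JUND as TGACGTCA at 200 bases, where it overlaps the TGACG match, against 6.87% of all promoters. TATAAA was found in 10.7% of all promoters. The AP-1 site TGANTCA (6.57% of all promoters) and the CArG box (1.16%), bound by serum response factor, were found in 0 of 6. Only these 250 bases were searched, so sites further upstream would have been missed. These matches describe letters in a window and were not tested for binding.

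The libraries summed to 6803648 to 24345364 estimated counts. Replicate 2 of P. umbellatus in Huh7 cells stood apart, with a median chi-square over genes of 13.3 and 17.6 times sampling noise against the other replicates of its group, while the other pairs of replicates of all groups lay between 2.74 and 5.36. The lines matched their labels in part. The hepatocyte genes ALB and AFP reached 2751 to 4879 and 1821 to 2651 CPM (counts scaled to a common library size, TMM) in Huh7 cells and at most 0.714 and 0.294 in A549 cells. KRT7, an epithelial keratin, lay between 1553 and 1774 CPM in A549 cells and at most at 0.123 in Huh7 cells. Of 8 lung and airway markers, 4 were in the table. KRT7 and MUC5AC (123 to 339 CPM in A549 and at most 0.143 in Huh7 cells) were higher in A549 cells. KRT19 did not separate the lines, with 10.3 to 45.5 CPM in A549 and 16.7 to 52.7 in Huh7 cells. Nor did the surfactant gene SFTPB, with 1.05 to 2.75 CPM in A549 and 2.12 to 5.16 in Huh7 cells. The other 4, NKX2-1, NAPSA, SFTPC and SFTPD, were not analysed here. The summed hepatocyte markers (9 of 9 in the table) lay between 13211 and 13963 CPM in Huh7 cells with P. chinensis, between 19388 and 19989 with B. chinense, between 19594 and 24096 with P. umbellatus and between 21599 and 22193 in control. The same sum in A549 cells, most of it HNF4A, lay between 117 and 133 CPM in control and between 49.7 and 61.7 over the 3 extracts. The 6 of 8 markers in the table for fibroblasts, endothelium and leukocytes summed to 26.5 to 40.7 CPM in A549 cells and 72.5 to 87.3 in Huh7 cells. Their part in the results below was not tested, and in such bulk RNA fewer cells of a kind and less RNA per cell cannot be told apart.

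The untreated lines started from different sets of these genes. Against control Huh7 cells, control A549 cells had more FOSL2, FOSL1 and FOS mRNA and less FOSB, JUN and JUND mRNA, so that 6 of 7 genes differed, where 68.7% of 12924 genes did. FOSL2 had the widest gap, with 290.3, 312 and 338 CPM in control A549 libraries and 20.4, 23.0 and 22.4 in control Huh7 libraries. The gap came to 3.85 ± 0.10 on the log2 scale (standard error, SE) with an adjusted p of 4.72e-19 (quasi-likelihood test of edgeR, adjusted after Benjamini and Hochberg, as for all adjusted p-values here, n = 3 libraries a group). FOSL1 was higher in control A549 cells by 1.87 ± 0.17 (adjusted p = 2.12e-09) and FOS by 1.53 ± 0.19 (adjusted p = 3.27e-07). Lower in control A549 cells were FOSB (-2.07 ± 0.36, adjusted p = 2.47e-05), JUN (-1.18 ± 0.16, adjusted p = 7.94e-07) and JUND (-1.16 ± 0.16, adjusted p = 8.98e-07). JUNB, at 37.6 to 44.4 CPM in A549 and 35.8 to 39.8 in Huh7 controls, gave a difference of 0.15 ± 0.17 (adjusted p = 0.45).

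**Figure D1:**
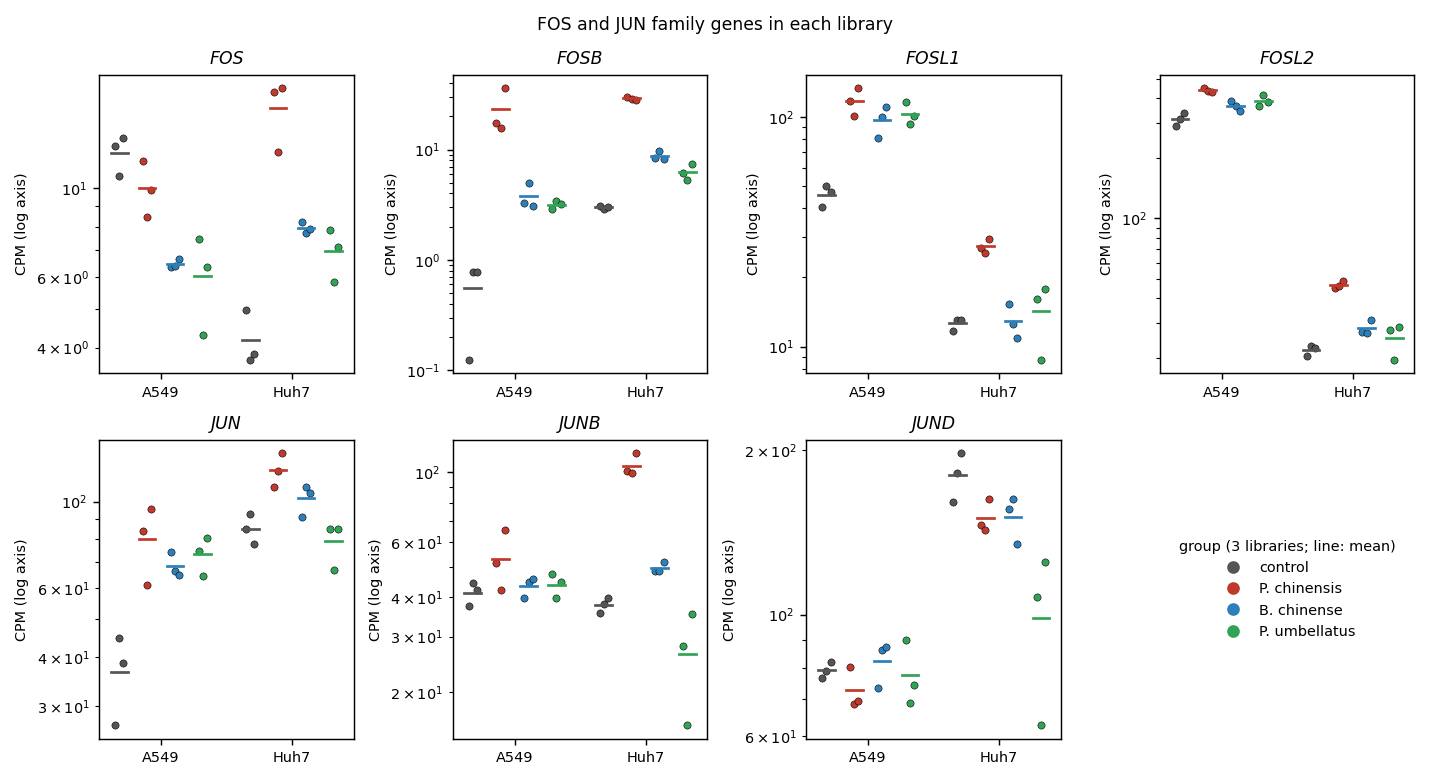
Level of each gene in each of the 24 libraries, in CPM on a log axis, with A549 groups on the left and Huh7 groups on the right of each panel, points for libraries and lines for the mean of 3. FOSB rose with each extract in both lines, FOS in A549 cells was lower than control with B. chinense and P. umbellatus but in Huh7 cells higher with all 3 extracts, and 1 Huh7 library with P. umbellatus was low for JUNB (15.7 CPM) and JUND (62.8 CPM).

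P. chinensis in A549 cells raised 4 of the 7 genes, FOSB, FOSL1, JUN and FOSL2, and lowered 0, where 15.8% of 13633 genes rose and 17.1% fell. B. chinense raised the same 4 and lowered FOS (background 13.1% and 15.0%). P. umbellatus also raised these 4 and lowered FOS (background 13.4% and 14.8%). The 3 extracts were compared with the same control libraries, so these counts are not independent of each other. The median log2 fold change of the 7 genes was 0.45, 0.18 and 0.24 in that order, and that of all genes 0.01, -0.00184 and -0.01.

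FOSB, the gene of a FOS protein with a strong activation domain, was nearly silent in control A549 cells and had the largest change of the 7. It stood at 0.124, 0.785 and 0.770 CPM in control (1, 8 and 8 counts) and at 17.5, 15.6 and 36.0 CPM with P. chinensis (147, 153 and 387 counts). With B. chinense it stood at 3.29, 4.96 and 3.10 CPM, and with P. umbellatus at 2.90, 3.45 and 3.18 CPM. Every treated library was above every control library, and the P. chinensis libraries, of which replicate 3 was the highest, were all above those of the other extracts. The rise was 4.86 ± 0.41 on the log2 scale with P. chinensis (29.1-fold, adjusted p = 5.26e-07), 2.32 ± 0.43 with B. chinense (4.98-fold, adjusted p = 0.00111) and 2.04 ± 0.43 with P. umbellatus (4.11-fold, adjusted p = 0.00249). The control counts are few, so the size depends on the prior count of the fit, and a prior of 0.1 in place of 2 gave 38.0-fold, 6.23-fold and 5.09-fold. The P. umbellatus call was lost with limma's voom and sample weights (adjusted p = 0.0594).

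FOS, the founding member of its family, went the other way in A549 cells. It had 12.7, 10.7 and 13.3 CPM in control and 11.7, 8.46 and 9.85 with P. chinensis, ranges that overlap. B. chinense libraries had 6.35, 6.39 and 6.64 CPM and P. umbellatus libraries 7.47, 4.31 and 6.36, all below every control library. The fall was 0.94 ± 0.21 on the log2 scale with B. chinense (1.91-fold, adjusted p = 0.00347) and 1.04 ± 0.20 with P. umbellatus (2.06-fold, adjusted p = 0.0014). With P. chinensis the difference was -0.32 ± 0.20 (adjusted p = 0.251).

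FOSL1, which encodes the FRA-1 protein abundant in many carcinomas, had 40.6, 49.9 and 46.9 CPM in control A549 libraries. P. chinensis libraries had 117, 101 and 133 CPM, B. chinense libraries 81.2, 100.3 and 110.02, and P. umbellatus libraries 116, 93.0 and 100.3. No treated library overlapped control. The rise was 1.32 ± 0.13 on the log2 scale (2.50-fold, adjusted p = 2.58e-06) with P. chinensis, 1.04 ± 0.13 (2.05-fold, adjusted p = 4.28e-05) with B. chinense and 1.11 ± 0.13 (2.16-fold, adjusted p = 1.98e-05) with P. umbellatus. FOSL2, the FRA-2 gene, rose by less, from the control values above to 448, 435 and 426 CPM with P. chinensis and 364, 416 and 384 with P. umbellatus. These libraries too lay above all control libraries. The changes were 0.45 ± 0.06 (adjusted p = 5.07e-05) and 0.24 ± 0.06 (adjusted p = 0.00732). With B. chinense FOSL2 had 386, 364 and 342 CPM, just above all controls, and a change of 0.18 ± 0.06 (adjusted p = 0.042). That call was lost without any 1 of 6 libraries (B. chinense replicates 1 and 2, control replicates 1 and 2, P. chinensis replicate 1 or P. umbellatus replicate 3), where the change was 0.13 to 0.18 and the adjusted p 0.0514 to 0.16.

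JUN, the main activating partner of FOS proteins, had 26.8, 44.8 and 38.6 CPM in control A549 libraries. P. chinensis brought it to 83.8, 61.3 and 95.5 CPM, B. chinense to 74.2, 66.3 and 64.7, and P. umbellatus to 74.6, 64.6 and 80.9. All treated libraries were above all control libraries. The rise was 1.09 ± 0.17 on the log2 scale (2.12-fold, adjusted p = 0.00021), 0.85 ± 0.17 (1.80-fold, adjusted p = 0.00213) and 0.92 ± 0.17 (1.90-fold, adjusted p = 0.00101) in that order. JUNB did not pass the test in A549 cells with any extract. It had 37.6, 44.4 and 42.3 CPM in control and 51.4, 42.1 and 65.5 with P. chinensis, a difference of 0.33 ± 0.14 (adjusted p = 0.0845) that passed without P. chinensis replicate 2 (0.46, adjusted p = 0.0108) and with upper quartile normalization (0.39, adjusted p = 0.0411). Without P. chinensis replicate 3 it was 0.14 (adjusted p = 0.425). Its difference was 0.03 ± 0.14 with B. chinense (adjusted p = 0.909) and 0.02 ± 0.14 with P. umbellatus (adjusted p = 0.928). JUND, the steadily made JUN gene, stayed between 68.6 and 89.7 CPM over the treated A549 libraries, against 76.6, 79.0 and 81.8 CPM in control. Its differences from control were -0.15 ± 0.10, 0.02 ± 0.10 and -0.08 ± 0.10 in the order above (adjusted p = 0.263, 0.926 and 0.584).

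**Figure D2:**
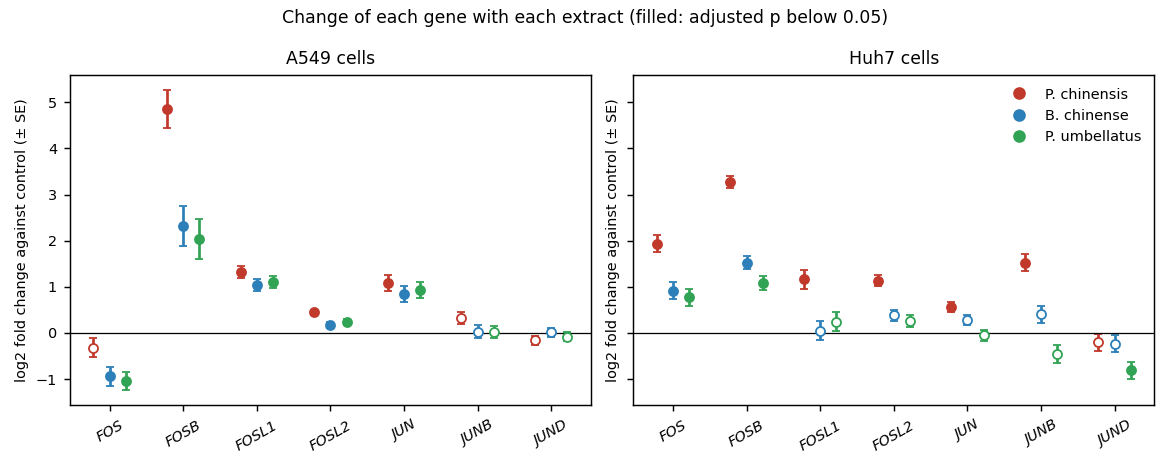
Log2 fold change of each gene against control with each extract, in A549 cells on the left and Huh7 cells on the right, with bars for 1 SE of the edgeR fit and filled points for an adjusted p below 0.05. FOSB had the largest rise with P. chinensis in both lines (4.86 in A549 and 3.27 in Huh7 cells), and FOS fell in A549 cells with B. chinense (-0.94) and P. umbellatus (-1.04) while it rose in Huh7 cells.

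In Huh7 cells P. chinensis raised 6 of the 7 genes, all but JUND, and lowered 0, where 10.5% of 13875 genes rose and 10.5% fell. B. chinense raised FOS and FOSB, 2 of 7, and lowered 0, in a comparison where 0.519% of genes rose and 0.757% fell. P. umbellatus raised FOS and FOSB and lowered JUND, where 19.3% rose and 17.8% fell. The median log2 fold change of the 7 genes was 1.16, 0.38 and 0.24 in that order, and that of all genes 0.01, -0.000103 and 0.03. These comparisons too share their control libraries.

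FOSB in Huh7 cells had 3.08, 2.92 and 3.02 CPM in control and 29.9, 28.9 and 28.3 with P. chinensis. B. chinense libraries had 8.31, 9.75 and 8.23 CPM and P. umbellatus libraries 6.10, 5.28 and 7.33. The 4 groups did not overlap. The rise was 3.27 ± 0.14 on the log2 scale (9.67-fold, adjusted p = 6.99e-08) with P. chinensis, 1.52 ± 0.14 (2.87-fold, adjusted p = 0.000338) with B. chinense and 1.08 ± 0.15 (2.12-fold, adjusted p = 0.000641) with P. umbellatus.

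FOS in Huh7 cells had 4.95, 3.73 and 3.86 CPM in control and 17.3, 12.3 and 17.7 with P. chinensis. B. chinense brought FOS to 8.21, 7.71 and 7.89 CPM and P. umbellatus to 7.86, 5.84 and 7.14. Every treated library was above every control library, the reverse of the order seen for the latter 2 extracts in A549 cells. The rise was 1.94 ± 0.18 on the log2 scale (3.83-fold, adjusted p = 1.53e-05) with P. chinensis, 0.92 ± 0.18 (1.89-fold, adjusted p = 0.0323) with B. chinense and 0.77 ± 0.19 (1.71-fold, adjusted p = 0.00878) with P. umbellatus. The B. chinense call was lost without any 1 of 7 libraries (each B. chinense replicate, each control replicate or P. chinensis replicate 1), where the change was 0.85 to 1.05 and the adjusted p 0.0549 to 0.155. The P. umbellatus call was lost when only the libraries compared were fitted (0.74, adjusted p = 0.0634).

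FOSL1 and FOSL2 passed the test in Huh7 cells with P. chinensis and with neither of the other extracts. FOSL1 had 11.7, 13.05 and 13.1 CPM in control and 27.0, 25.7 and 29.3 with P. chinensis, and FOSL2 rose from 20.4, 23.0 and 22.4 CPM to 44.7, 46.0 and 48.7. Neither gene's P. chinensis libraries overlapped control. The rises were 1.16 ± 0.20 on the log2 scale (2.24-fold, adjusted p = 0.0015) for FOSL1 and 1.14 ± 0.12 (2.20-fold, adjusted p = 6.01e-05) for FOSL2. With B. chinense FOSL1 had 15.4, 12.5 and 10.9 CPM, around the control values, and a change of 0.05 ± 0.21 (adjusted p = 0.966). FOSL2 had 27.0, 26.7 and 31.1 CPM, above all controls, with a change of 0.38 ± 0.13 (adjusted p = 0.208). With P. umbellatus FOSL1 had 16.2, 8.75 and 17.8 CPM and FOSL2 27.7, 19.6 and 28.5, in both cases with replicate 2 below every control library and the others above. Without replicate 2 of P. umbellatus, the changes were 0.48 for FOSL1 (adjusted p = 0.0206) and 0.40 for FOSL2 (adjusted p = 0.00594), against 0.24 ± 0.21 and 0.26 ± 0.13 with it (adjusted p = 0.385 and 0.129). Without that library FOSL2 (0.38, adjusted p = 0.0163) and JUNB (0.40, adjusted p = 0.0137) also passed with B. chinense. Both passed there with voom too (adjusted p = 0.0146 and 0.0141) and when only the libraries compared were fitted (adjusted p = 0.0411 and 0.00695).

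JUNB, which encodes a weaker activator than JUN, rose in Huh7 cells with P. chinensis from 35.8, 38.2 and 39.8 CPM in control to 101, 99.1 and 115 CPM. No library of the groups overlapped, and the rise was 1.52 ± 0.18 on the log2 scale (2.87-fold, adjusted p = 0.000118). With B. chinense it had 48.5, 48.5 and 51.9 CPM and a change of 0.40 ± 0.18 (adjusted p = 0.403). With P. umbellatus it had 28.0, 15.7 and 35.4 CPM, all below the lowest control, and a change of -0.45 ± 0.19 (adjusted p = 0.0815). That difference was -0.71 (adjusted p = 0.00686) without replicate 3 of P. umbellatus, -0.20 (adjusted p = 0.14) without replicate 2 and -0.48 (adjusted p = 0.0463) with DESeq2.

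JUN in Huh7 cells had 85.1, 93.1 and 77.7 CPM in control and 109, 120.1 and 133 with P. chinensis, above all controls. The rise was 0.56 ± 0.11 on the log2 scale (1.47-fold, adjusted p = 0.00402). With B. chinense JUN had 91.4, 109 and 105 CPM, overlapping control, and with P. umbellatus 85.2, 67.0 and 84.99, with changes of 0.28 ± 0.11 (adjusted p = 0.329) and -0.05 ± 0.11 (adjusted p = 0.756). JUND, the most abundant of the 7 in Huh7 cells, had 161, 181 and 197 CPM in control. P. chinensis libraries had 145, 143 and 162 CPM and B. chinense libraries 156, 163 and 134, both overlapping control, with changes of -0.20 ± 0.18 (adjusted p = 0.485) and -0.23 ± 0.18 (adjusted p = 0.701). The former passed with voom (-0.23, adjusted p = 0.0356) and when only the libraries compared were fitted (-0.20, adjusted p = 0.049). With P. umbellatus it had 107.9, 62.8 and 125 CPM, below all controls, and fell by 0.81 ± 0.18 on the log2 scale (1.75-fold, adjusted p = 0.00652). The fall was 0.58 without replicate 2 of P. umbellatus (adjusted p = 0.00165), and its call was lost when only the libraries compared were fitted (-0.84, adjusted p = 0.0603).

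The extracts were also compared with each other directly. In A549 cells P. chinensis and B. chinense differed in 2 of 7 genes (background 1.45%), P. chinensis and P. umbellatus in 1 (3.01%), and B. chinense and P. umbellatus in 0 (0.0513%, 7 genes of 13633 by edgeR). FOSB was the gene higher with P. chinensis in both of the former, by 2.55 ± 0.35 (adjusted p = 0.00396) over B. chinense and 2.82 ± 0.34 (adjusted p = 0.00114) over P. umbellatus. FOSL2 was higher with P. chinensis than with B. chinense by 0.27 ± 0.06 (adjusted p = 0.0424), a call lost without any 1 of 8 libraries (each P. chinensis replicate, each B. chinense replicate, control replicate 2 or P. umbellatus replicate 3), with 0.23 to 0.31 and adjusted p 0.0582 to 0.17. DESeq2 added FOSL2 against P. umbellatus (0.20, adjusted p = 0.0416). Between B. chinense and P. umbellatus the 7 differences lay between -0.07 ± 0.17 for JUN and 0.28 ± 0.36 for FOSB. None of these 7 had an unadjusted p below 0.05, and DESeq2 also called 0.

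In Huh7 cells P. chinensis exceeded P. umbellatus in 7 of 7 genes (background 35.4%) and B. chinense in 5 of 7 (7.81%), the exceptions being JUN and JUND. FOSB was higher with P. chinensis by 1.75 ± 0.13 than with B. chinense (adjusted p = 2.79e-05) and by 2.19 ± 0.14 than with P. umbellatus (adjusted p = 1.2e-05). JUNB was higher by 1.12 ± 0.18 (adjusted p = 0.00315) and 1.97 ± 0.19 (adjusted p = 0.000123), and FOS by 1.02 ± 0.18 (adjusted p = 0.00458) and 1.17 ± 0.18 (adjusted p = 0.000881). FOSL1 and FOSL2 were higher with P. chinensis than with B. chinense by 1.11 ± 0.21 (adjusted p = 0.00636) and 0.75 ± 0.13 (adjusted p = 0.00341), and JUN was higher than with P. umbellatus by 0.61 ± 0.11 (adjusted p = 0.00219). JUND was higher with P. chinensis than with P. umbellatus by 0.61 ± 0.18 (adjusted p = 0.0235), a call lost without P. chinensis replicate 1 or 3 (0.55 to 0.64, adjusted p 0.0501 to 0.0771) and with only the libraries compared (0.61, adjusted p = 0.0935). Without P. umbellatus replicate 2, which stood apart, that JUND difference was 0.37 (adjusted p = 0.0173) and that of JUNB 1.72 (adjusted p = 2.11e-06). Between B. chinense and P. umbellatus, FOSB, JUNB and JUND differed, 3 of 7 (27.3%), each higher with B. chinense. JUNB differed by 0.86 ± 0.19 (adjusted p = 0.0121), FOSB by 0.44 ± 0.14 and JUND by 0.58 ± 0.19 (both adjusted p = 0.0382). Without P. umbellatus replicate 2 these were 0.61 for JUNB, 0.34 for FOSB and 0.34 for JUND (adjusted p = 0.00219, 0.0956 and 0.0372). FOSL1 was then lower with B. chinense (-0.43, adjusted p = 0.0498). The FOSB call was lost without any 1 of 10 libraries (all but control replicate 2 and P. umbellatus replicate 3, adjusted p 0.0523 to 0.104), and the JUND call without any 1 of 8 (all but control replicate 1 and the 3 of P. umbellatus, adjusted p 0.0501 to 0.101). When only the libraries compared were fitted, the calls of FOSB, JUNB and JUND were all lost (adjusted p = 0.199, 0.129 and 0.159). JUN, higher by 0.33 ± 0.12 (adjusted p = 0.0524), passed with DESeq2 (0.35, adjusted p = 0.023).

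Whether an extract acted differently in the 2 lines was tested as the A549 change minus the Huh7 change in a fit of all 24 libraries. P. chinensis differed between the lines in 4 of 7 genes (background 19.6%), B. chinense in 2 (11.6%) and P. umbellatus in 4 (34.4%). FOS differed with all 3 extracts, by -2.20 ± 0.27 with P. chinensis (adjusted p = 3.83e-06), -1.82 ± 0.28 with B. chinense (adjusted p = 0.000121) and -1.74 ± 0.28 with P. umbellatus (adjusted p = 9.39e-05). FOSB rose more in A549 cells with P. chinensis, by 1.72 ± 0.42 (adjusted p = 0.00497), from a control level of 0.560 ± 0.377 CPM in A549 against 3.01 ± 0.08 CPM in Huh7 cells (SD, n = 3). Its levels after P. chinensis, 15.6 to 36.0 CPM in A549 and 28.3 to 29.9 in Huh7 cells, overlapped. JUNB and FOSL2 rose more in Huh7 cells with P. chinensis, with differences of -1.14 ± 0.24 (adjusted p = 0.00152) and -0.63 ± 0.13 (adjusted p = 0.000873). FOSL1 rose more in A549 cells with B. chinense (1.03 ± 0.24, adjusted p = 0.00692) and P. umbellatus (0.94 ± 0.25, adjusted p = 0.0057), and JUN with P. umbellatus (1.06 ± 0.22, adjusted p = 0.00103). JUND differed with P. umbellatus by 0.80 ± 0.22 (adjusted p = 0.00826). The P. umbellatus calls of FOSL1 with voom (0.76, adjusted p = 0.0508) and of JUND with only the libraries compared (0.76, adjusted p = 0.0547) were lost. JUN missed the threshold for P. chinensis (0.58 ± 0.22, adjusted p = 0.0648) and for B. chinense (0.62 ± 0.22, adjusted p = 0.0776), but passed with DESeq2 (adjusted p = 0.0451 and 0.0424). It also passed without A549 P. chinensis replicate 2, A549 control replicate 2 or Huh7 P. umbellatus replicate 2, with 0.58 to 0.75 and 0.61 to 0.78. FOSB with P. umbellatus (1.10 ± 0.43, adjusted p = 0.0533) passed with DESeq2 (1.30, adjusted p = 0.0427), and without any 1 of the A549 P. chinensis libraries or Huh7 P. umbellatus replicate 3 (adjusted p 0.0133 to 0.0482).

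**Figure D3:**
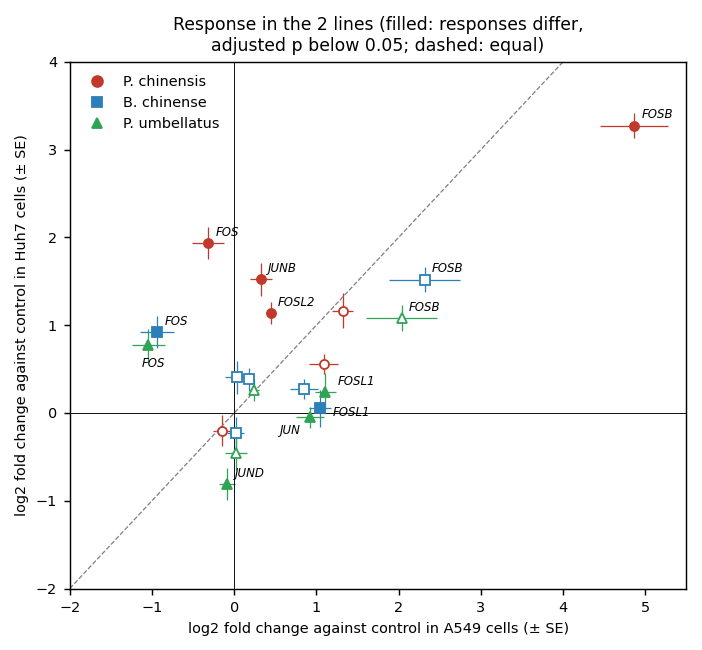
Log2 fold change against control in A549 cells (x axis) and Huh7 cells (y axis) for each gene and extract, with bars for 1 SE and filled symbols where the lines differed at an adjusted p below 0.05. FOS lay above the dashed line of equal change with all 3 extracts, and FOSB with P. chinensis lay below it.

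The make-up of the family was described from CPM per kilobase, with the mean length of the protein-coding transcripts of each gene, as the share of each gene in the summed level of the 7. Shares are given as a description and were not tested. Control A549 cells held mostly FOSL2 (32.0% ± 0.9, SD, n = 3) and JUND (29.8% ± 1.2), whose libraries overlapped at 31.1% to 32.9% and 29.0% to 31.1%. FOSL1 followed with 17.3% ± 0.95 and JUNB with 10.3% ± 0.4. FOS (5.39% ± 0.74) and JUN (5.11% ± 1.03) overlapped, and FOSB was last with 0.0868% ± 0.0566. The FOS family made up 54.7% ± 0.7 of the sum.

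Control Huh7 cells held JUND above all, with 68.6% ± 2.2, before JUN (12.2% ± 1.5) and JUNB (9.64% ± 0.20), which did not overlap. FOSL1 (4.85% ± 0.097), FOSL2 (2.28% ± 0.08), FOS (1.89% ± 0.45, overlapping FOSL2) and FOSB (0.490% ± 0.046) came after. The FOS family made up 9.51% ± 0.57. The summed level was close in the 2 lines, with 219 ± 14 CPM per kilobase in A549 and 215 ± 16 in Huh7 controls.

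At this length scaling, the share of the FOS family was higher than in control in every treated library of both lines. With no division by length, B. chinense and P. umbellatus libraries overlapped control in A549 cells. The level of the FOS family per kilobase was higher too, except in Huh7 P. umbellatus replicate 2. That library had 19.1 CPM per kilobase, against 20.1 to 20.6 in control. In A549 cells the share by mean length was 65.2% ± 1.1 for P. chinensis, 60.1% ± 0.4 for B. chinense and 61.9% ± 2.0 for P. umbellatus. FOSL1 reached 29.7% ± 1.6, 28.4% ± 3.0 and 29.4% ± 1.6 in the same order, overlapping FOSL2 each time, and JUND went to 18.5% ± 1.8, 24.01% ± 1.10 and 22.0% ± 1.7. FOSB reached 2.43% ± 1.006 with P. chinensis and 0.385% to 0.468% on average with the other extracts. FOS went from 5.39% to 2.95% ± 0.36, 2.21% ± 0.08 and 1.99% ± 0.43. The summed level was 326 ± 30, 282 ± 14 and 289 ± 18 CPM per kilobase, in each library above all controls.

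In Huh7 cells the FOS family made up 21.1% ± 1.0, 13.2% ± 0.8 and 18.2% ± 1.0 of the sum in that order. With P. chinensis JUND went to 44.8% ± 0.1 and JUNB to 20.7% ± 0.2, ahead of JUN (13.4% ± 0.8), and FOS, FOSB and FOSL1 to 5.48% ± 0.87, 3.68% ± 0.33 and 8.17% ± 0.13. The sum was 276 ± 20 CPM per kilobase, above all controls. With P. umbellatus the sum was 146 ± 41, from 99.9 in replicate 2 to 179 and below all controls, and JUND held 55.0% ± 2.9 of it and JUN 17.2% ± 3.1. With B. chinense JUND held 59.0% ± 2.6, and the sum, 210.3 ± 11.7, overlapped control. The order of neighbours depends on the length used, and with the longest transcript FOSL1 (29.1%) stood before FOSL2 (27.8%) in A549 cells with P. chinensis. In A549 controls, JUN (7.24%) then stood before FOS (3.78%). With no division by length FOSL2 made up 59.3% and JUND 15.0% in A549 controls, and JUN (24.4%) stood before JUNB (21.2%) in Huh7 cells with P. chinensis.

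**Figure D4:**
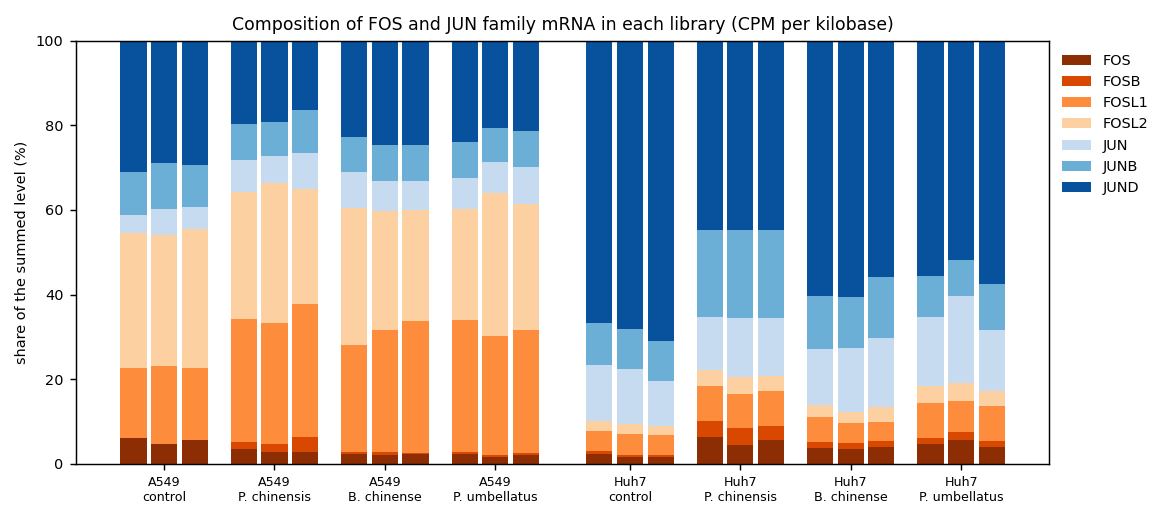
Share of each gene in the summed CPM per kilobase of the 7 genes, in percent, 1 bar for each of the 24 libraries, with the FOS family in orange and the JUN family in blue. FOSL2 and JUND led in control A549 cells and JUND in control Huh7 cells. With the mean transcript lengths used here, the orange part was larger in treated than in control libraries of each line.

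Other genes of the pathway were read from lists, with the shares of all genes given above as background. Of 23 genes known to have AP-1 sites, 16 were tested in A549 and 14 in Huh7 cells. In A549 cells 12 rose and 0 fell with P. chinensis, 10 rose and 1 fell with B. chinense, and 13 rose and 0 fell with P. umbellatus. Their median log2 fold change was 0.51, 0.34 and 0.41. In Huh7 cells 10 rose and 1 fell with P. chinensis, 1 rose and 0 fell with B. chinense, and 4 rose and 3 fell with P. umbellatus, with medians of 1.13, 0.02 and 0.16. Without the Huh7 P. umbellatus library that stood apart, 4 rose and 3 fell, with a median of 0.37, where 16.6% of all genes rose and 16.2% fell with a median of 0.02. LAMB3, which encodes a laminin chain of the basement membrane, rose in A549 cells with P. chinensis by 1.76 ± 0.08 (adjusted p = 1.3e-09). Its rise there was 1.30 ± 0.08 with B. chinense and 1.31 ± 0.08 with P. umbellatus (adjusted p = 4.45e-08 and 3.79e-08). PLAU (urokinase, a secreted protease) rose there with P. umbellatus by 1.37 ± 0.06 (adjusted p = 3.28e-09). It also rose there with P. chinensis by 1.33 ± 0.06 and B. chinense by 1.13 ± 0.06 (adjusted p = 1.87e-09 and 2.48e-08). HBEGF, a ligand of the EGF receptor, rose with P. chinensis by 1.52 ± 0.24 in A549 (adjusted p = 0.000222) and 1.79 ± 0.18 in Huh7 cells (adjusted p = 2.55e-05). In A549 cells it rose by 1.18 ± 0.25 with B. chinense and 1.17 ± 0.24 with P. umbellatus (adjusted p = 0.00243 and 0.00221). In Huh7 cells it rose by 1.05 ± 0.18 with P. umbellatus (adjusted p = 0.00211). Its change there with B. chinense, 0.33 ± 0.19, was not called (adjusted p = 0.537). HMOX1, the heme-degrading oxygenase that is also a target of NRF2, was the gene that rose in Huh7 cells with B. chinense (1.14 ± 0.17, adjusted p = 0.00621), and it rose there by 2.23 ± 0.17 with P. chinensis (adjusted p = 4.01e-06). With P. umbellatus HMOX1 rose there by 1.30 ± 0.17 (adjusted p = 0.000587). CD44, a hyaluronan receptor, rose in Huh7 cells by 2.22 ± 0.15 with P. chinensis (adjusted p = 1.92e-06) and 1.43 ± 0.16 with P. umbellatus (adjusted p = 0.00027).

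**Figure D5:**
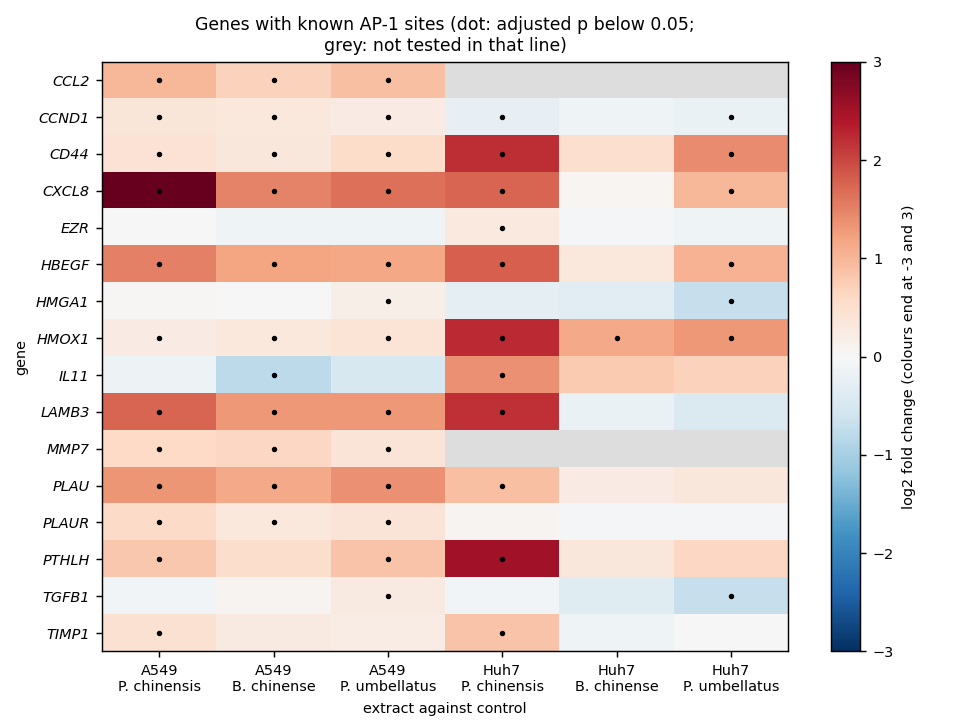
Log2 fold change against control, in colour, of the 16 genes with known AP-1 sites that were tested in A549 cells (14 of them also in Huh7 cells), with a dot for an adjusted p below 0.05 and grey for a gene not tested in the line. Most squares with a dot are red, and the column of Huh7 cells with B. chinense has 1 dot, at HMOX1.

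Of 14 genes for other leucine zipper proteins that can pair with FOS or JUN, 13 were tested in A549 and 14 in Huh7 cells. In the order of extracts used above, 4, 3 and 2 rose and 2, 2 and 3 fell in A549 cells (medians 0.30, 0.45 and 0.16), and 7, 1 and 3 rose and 1, 0 and 1 fell in Huh7 cells (medians 0.48, 0.05 and -0.21). Of all genes, 15.8%, 13.1% and 13.4% rose and 17.1%, 15.0% and 14.8% fell in A549 cells. The shares in Huh7 cells were 10.5%, 0.519% and 19.3% and 10.5%, 0.757% and 17.8%. Without the library that stood apart, P. umbellatus raised 5 and lowered 1 in Huh7 cells, with a median of 0.02. In that fit 16.6% of all genes rose and 16.2% fell. ATF3, a stress-induced partner of JUN proteins, rose in A549 cells by 3.003 ± 0.34 with P. chinensis (adjusted p = 9.55e-06), 1.89 ± 0.35 with B. chinense (adjusted p = 0.000905) and 1.67 ± 0.34 with P. umbellatus (adjusted p = 0.00201). In Huh7 cells ATF3 rose by 1.82 ± 0.15 with P. chinensis (adjusted p = 5.21e-06) and 0.64 ± 0.15 with P. umbellatus (adjusted p = 0.00742). With B. chinense its change there was 0.63 ± 0.15, which was not called (adjusted p = 0.0648). JDP2, which represses AP-1 sites, fell in A549 cells by 0.51 ± 0.14, 0.66 ± 0.14 and 0.62 ± 0.14 in the order of extracts above (adjusted p = 0.0109, 0.00279 and 0.00338). In Huh7 cells it fell by 0.51 ± 0.13 with P. chinensis (adjusted p = 0.0175) and 0.91 ± 0.14 with P. umbellatus (adjusted p = 0.00125). With B. chinense the JDP2 change there was -0.58 ± 0.14, which was not called (adjusted p = 0.0664). MAFK, a small MAF protein without an activation domain, fell in A549 cells with each extract, by 0.61 ± 0.08, 0.74 ± 0.08 and 0.70 ± 0.08 in that order, but rose in Huh7 cells with P. chinensis by 0.78 ± 0.14 (adjusted p = 0.00179). MAF rose in Huh7 cells with P. chinensis by 1.015 ± 0.11 (adjusted p = 5.51e-05), with B. chinense by 0.62 ± 0.11 (adjusted p = 0.0174) and with P. umbellatus by 0.55 ± 0.11 (adjusted p = 0.00393).

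Of 20 genes of the MAP kinase cascades that activate AP-1, 19 were tested in each line. In A549 cells 2 rose with each extract, and 4, 2 and 2 fell in the order above (medians -0.07, -0.06 and -0.12). Of all genes 15.8%, 13.1% and 13.4% rose there and 17.1%, 15.0% and 14.8% fell. In Huh7 cells, 10.5%, 0.519% and 19.3% of all genes rose and 10.5%, 0.757% and 17.8% fell. Of the kinase genes, 0 rose and 3 fell there with P. chinensis (median -0.09) and 6 rose and 5 fell with P. umbellatus (median -0.09). B. chinense changed 0 kinase genes there by edgeR (median -0.03), with 2 at an unadjusted p below 0.05, and 0 by DESeq2. Without the library that stood apart, P. umbellatus raised 5 and lowered 5, where 16.6% of all genes rose and 16.2% fell. MAP2K3, a kinase upstream of p38, rose in A549 cells with P. chinensis by 0.49 ± 0.09 (adjusted p = 0.000844). It rose there with B. chinense by 0.34 ± 0.09 and P. umbellatus by 0.40 ± 0.09 (adjusted p = 0.0153 and 0.0044). MAP2K6, which acts at the same step, fell with P. chinensis by 0.45 ± 0.14 in A549 (adjusted p = 0.0241) and 1.08 ± 0.09 in Huh7 cells (adjusted p = 9.87e-06). In Huh7 cells MAP2K3 changed by 0.10 ± 0.15 with P. chinensis and 0.13 ± 0.15 with B. chinense (adjusted p = 0.695 and 0.82). With P. umbellatus it fell there by 0.50 ± 0.15 (adjusted p = 0.0224), and by 0.29 without the library that stood apart (adjusted p = 0.00257). Of 9 factors that act on the FOS and JUN promoters, 2, 2 and 1 rose and 2, 1 and 1 fell in A549 cells in the same order (medians -0.08, -0.02 and -0.02), and 2, 0 and 3 rose and 0, 0 and 2 fell in Huh7 cells (medians -0.08, 0.05 and 0.09). With B. chinense in Huh7 cells, 0 of the 9 had an unadjusted p below 0.05 and DESeq2 called 0. CREB1, whose protein binds TGACG sites, fell in A549 cells with P. chinensis by 0.44 ± 0.07 (adjusted p = 0.000261). It fell there with B. chinense by 0.31 ± 0.07 and P. umbellatus by 0.28 ± 0.07 (adjusted p = 0.00452 and 0.00841). In Huh7 cells CREB1 changed by -0.11 ± 0.11 with P. chinensis and 0.01 ± 0.11 with B. chinense (adjusted p = 0.508 and 0.986). With P. umbellatus it rose there by 0.35 ± 0.11 (adjusted p = 0.0257), and by 0.19 without the library that stood apart (adjusted p = 0.038). ELK3, a partner of serum response factor, rose in A549 cells with P. chinensis by 0.45 ± 0.06 (adjusted p = 2.58e-05). Its rise there was 0.32 ± 0.06 with B. chinense and 0.45 ± 0.06 with P. umbellatus (adjusted p = 0.000759 and 3.11e-05). Of 7 genes that limit the mRNAs or proteins of the family, 2, 1 and 1 rose and 2, 1 and 1 fell in A549 cells (medians -0.11, -0.10 and -0.21), and 1, 0 and 1 rose and 1, 0 and 2 fell in Huh7 cells (medians 0.06, -0.06 and -0.14). There B. chinense left 2 at an unadjusted p below 0.05, and DESeq2 called 1 as lower. ZFP36L2, which destabilizes AU-rich mRNAs, fell with P. chinensis by 0.75 ± 0.07 in A549 (adjusted p = 1.76e-06) and 0.59 ± 0.08 in Huh7 cells (adjusted p = 0.000226). It fell in A549 cells with B. chinense by 0.42 ± 0.07 and P. umbellatus by 0.64 ± 0.07 (adjusted p = 0.000481 and 1.01e-05). In Huh7 cells ZFP36L2 fell with P. umbellatus by 0.62 ± 0.08 (adjusted p = 0.000513), and its B. chinense change, -0.29 ± 0.08, was not called (adjusted p = 0.104). Its relative ZFP36 went the other way in Huh7 cells with P. chinensis, with a rise of 0.996 ± 0.225 (adjusted p = 0.00787). Another relative, ZFP36L1, rose in A549 cells with P. chinensis by 0.52 ± 0.09 (adjusted p = 0.000275). It rose there with B. chinense by 0.36 ± 0.09 and P. umbellatus by 0.53 ± 0.09 (adjusted p = 0.00608 and 0.000312). In Huh7 cells ZFP36L1 changed by -0.14 ± 0.11 with P. chinensis and -0.31 ± 0.11 with B. chinense (adjusted p = 0.426 and 0.239). With P. umbellatus it fell there by 0.35 ± 0.11 (adjusted p = 0.0268), and by 0.22 without the library that stood apart (adjusted p = 0.0362).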

How the data were processed

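RNA of 24 libraries was quantified by the authors, per their methods, with kallisto against Ensembl release 108 transcripts of GRCh38.p13, and they kept protein-coding genes with an average count above 5. The deposited values are estimated counts per gene, whole numbers not normalized for library size. How transcripts were summed per gene is not given in the sources used here. For each line, its 12 libraries were fitted over the genes averaging more than 5 counts in them (13633 in A549, 13875 in Huh7) with edgeR 4.0.16 (TMM normalization, quasi-likelihood F test, two-sided, 1 coefficient per group, prior count of 2) in R 4.3.3. Adjusted p-values (Benjamini-Hochberg) cover all genes tested, and those below 0.05 were called. Differences between the lines were tested in 1 fit of all 24 libraries on 12924 genes. The SE of a log2 fold change is its size divided by the square root of F. CPM values use TMM over all libraries. The 1 gene without a type was left out, and 2 genes of the list with AP-1 sites are not reported here. The pipeline was tested on simulated data. The 7 genes and all lists were chosen with earlier results of these data known. From each list, up to 3 genes per comparison could be named, those with the largest changes among called genes averaging 50 counts or more. Alternatives were DESeq2 1.42.0, RLE and upper quartile normalization, voom of limma 3.58.1, other filters, only the libraries compared, a replicate block, other length scalings and leaving out each library. A prior count of 0.1 was added after seeing the data.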

Additional observations from a re-analysis of the deposited data

Results flagged for a closer look

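The following changes against control differed between A549 and Huh7 cells by the interaction test of edgeR (adjusted p below 0.05), given as the A549 change minus the Huh7 change on the log2 scale. With P. chinensis these were FOS (-2.20), FOSB (1.72), FOSL2 (-0.63) and JUNB (-1.14). With B. chinense they were FOS (-1.82) and FOSL1 (1.03). With P. umbellatus they were FOS (-1.74), FOSL1 (0.94), JUN (1.06) and JUND (0.80). The P. umbellatus values of FOSL1, JUN and JUND were 0.71, 0.95 and 0.58 without the Huh7 library of replicate 2, and all 3 remained called.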

How the results depend on the processing

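Of 59 called differences of the 7 genes, 47 were called in every alternative, and 59 kept their direction. The filter of a mean of at least 50 counts removed none of the 7 genes. DESeq2 called 2 genes between P. chinensis and P. umbellatus in A549 cells. With only the libraries compared, the called genes were 4 for B. chinense and 1 for P. umbellatus against control in Huh7 cells, 1 for P. chinensis against B. chinense in A549 cells and 0 for B. chinense against P. umbellatus in Huh7 cells. With voom, B. chinense called 4 in Huh7 cells. The cause was not tested. Differences that were not called could turn sign. With voom this held for FOSL2 between the lines (-0.045), JUN in Huh7 cells (0.053) and JUNB in A549 cells (-0.00276), all with P. umbellatus. Without 1 library the range of the log2 difference crossed 0 as follows. Between B. chinense and P. umbellatus it was -0.084 to 0.295 for FOS, -0.172 to 0.051 for FOSL1, -0.158 to 0.00387 for JUN and -0.063 to 0.071 for JUNB in A549 cells, and -0.023 to 0.204 for FOSL2 in Huh7 cells. Against control it was -0.027 to 0.094 for JUNB and -0.032 to 0.0997 for JUND with B. chinense and -0.034 to 0.092 for JUNB with P. umbellatus in A549 cells, and -0.084 to 0.160 for FOSL1 with B. chinense and -0.115 to 0.050 for JUN with P. umbellatus in Huh7 cells. For JUND it was -0.153 to 0.047 between P. chinensis and P. umbellatus in A549 cells, -0.065 to 0.076 between P. chinensis and B. chinense in Huh7 cells and -0.012 to 0.141 between the lines with P. chinensis. For FOSL2 between the lines with P. umbellatus it was -0.079 to 0.154.

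The replicate number did not pair the libraries (same-number correlations of -0.07 to 0.07 in A549 and -0.03 to 0.09 in Huh7 cells, with 1 of 12 and 3 of 12 libraries closest to their own number). With the replicate block, P. chinensis and B. chinense differed in 1 gene in A549 cells. The block lost FOSL2 there (0.27, adjusted p = 0.0835), FOSL2 with B. chinense against control (0.18, adjusted p = 0.0628) and FOSB between B. chinense and P. umbellatus in Huh7 cells (0.44, adjusted p = 0.0591), and gained FOSB between the lines with P. umbellatus (1.18, adjusted p = 0.0384). It changed no other call of the 7 genes.

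Leaving out 1 library gave, against control and in the order of extracts of the report, 4 to 5, 4 to 5 and 5 called genes in A549 and 6, 1 to 4 and 3 to 5 in Huh7 cells. Between extracts it gave 1 to 2, 1 and 0 in A549 cells and 5 to 6, 6 to 7 and 1 to 4 in Huh7 cells, between the lines 4 to 5, 2 to 3 and 4 to 6, and between the controls 6.

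The FOS family share moved with the length used. With no division by length it was 70.3% in control and 74.1%, 70.8% and 72.0% with the extracts in A549 cells, and 12.1%, 24.03%, 16.1% and 20.6% in Huh7 cells. The A549 libraries of B. chinense and P. umbellatus then overlapped control. With the longest transcript it was 51.5%, 61.4%, 56.9% and 58.5% in A549 cells and 8.79%, 18.2%, 11.6% and 16.1% in Huh7 cells. Depth limited FOSB most, with 1 to 8 counts in control A549 libraries.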

Other observations

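For each gene of the family, the genes with the closest pattern were sought by Pearson's r of log2 CPM over the 24 libraries after the mean of each line was removed, among 9944 genes. The libraries share their treatment groups and their depth, so r is a description. FOS was closest to AKAP12 (r = 0.86), a scaffold of protein kinase A, and to DUSP1 (r = 0.84), an immediate early phosphatase of MAP kinases. For DUSP1, r was 0.62 within A549 and 0.95 within Huh7 cells. FOSB was closest to ATF3 (r = 0.93) and TNFRSF9 (r = 0.92), the receptor 4-1BB. FOSL1 was closest to SQSTM1 (r = 0.93), the autophagy adaptor p62, and KRT19 (r = 0.93), and JUN to KRT19 (r = 0.93) and EHD1 (r = 0.92). FOSL2 was closest to SDC4 (r = 0.94), syndecan-4, and TUBA1A (r = 0.92). JUNB was closest to IER2 (r = 0.95), an immediate early gene, and RHOC (r = 0.95), but within A549 cells alone r was 0.49 for IER2 and -0.02 for RHOC. JUND was closest to FBRSL1 (r = 0.96) and RPL4 (r = 0.95), a ribosomal protein gene. Within A549 cells r was 0.81 for FBRSL1 and 0.66 for RPL4, and within Huh7 cells it was 0.98 for both. The Huh7 P. umbellatus library that stood apart, low for JUNB and JUND, is part of these values, and r without it was not computed.

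Within the family, over the same 24 libraries, FOSB, FOSL1 and JUN had r of 0.77 to 0.83 with each other and FOSL2 and JUNB one of 0.84. FOSL2 also had r of 0.80 with FOSB, 0.79 with FOSL1 and 0.66 with JUN. For JUNB these were 0.62, 0.66 and 0.56. FOS had r of 0.05 with JUN and 0.64 with JUNB, and JUND had r of 0.52 with JUNB and between -0.08 and 0.19 with the others. These values pool both lines and include the Huh7 library that stood apart, and r within each line was not computed. With B. chinense and P. umbellatus, FOS fell in A549 cells, where JUN rose, but rose in Huh7 cells. With P. chinensis both rose in Huh7 cells.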
